A study of Homo sapiens with 4 samples.

Results

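The library labelled wtOCLN+LPS, from BEAS-2B cells that received a wild-type occludin transfection before LPS, was set against the library labelled LPS, from cells given LPS with no transfection named in the label. All genes at 1 CPM (counts divided by the library total and multiplied by 1e+06) or more in either library were taken, which gave 13493 of 24424 gene symbols. A further 6297 symbols had 0 counts in both libraries. BEAS-2B cells are human bronchial epithelial cells that were immortalised for culture, and LPS is the bacterial lipopolysaccharide sensed by TLR4. The series holds 4 libraries, 1 for each group. The control group was untreated, the LPS group had LPS for 2 h, the siOCLN+LPS group had an siRNA against occludin for 24 h and then LPS for 2 h, and the wtOCLN+LPS group had wild-type occludin for 24 h and then LPS for 2 h. The labels name no mock or empty-vector transfection for the LPS group, so the transfected occludin and the act of transfection cannot be told apart. The labels name neither the vector nor the promoter that was to drive occludin, and do not say whether cells were pooled.

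Occludin is a membrane-spanning protein of tight junctions, the seals between neighbouring epithelial cells, and LPS signals through TLR4 and the adaptor MYD88 to NF-kB, which switches on cytokine and chemokine genes. Type I and type III interferons act through a separate route: their receptors activate the kinases JAK1 and TYK2, which phosphorylate STAT proteins, and these bind IRF9 and switch on antiviral genes through the interferon-stimulated response element. Cells also sense double-stranded RNA and cytosolic DNA directly, with RIG-I (DDX58), MDA5 (IFIH1) and cGAS (MB21D1). Another programme, the integrated stress response, raises the transcription factor ATF4, which binds C/EBP-ATF response elements and drives amino acid synthesis, amino acid uptake and tRNA charging.

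The LPS library held 13867494 counts and the library labelled wtOCLN+LPS 17500031, beside 15889736 in control and 17476333 in siOCLN+LPS. A count was worth 0.0571 to 0.0721 CPM. With 1 library in each group there was no replicate error and no test. The intervals given with each fold are exact 95% intervals from the counts of both libraries and cover counting error only. They do not cover the spread between cultures, so every statement below compares libraries, not conditions. In bulk RNA such as this, fewer cells of a type and less RNA per cell cannot be told apart. Airway basal markers, 9 of 11 of them tested, summed to 1407, 1221, 1714 and 1859 CPM in control, LPS, siOCLN+LPS and wtOCLN+LPS. Most of that sum was KRT17, at 678, 588, 687 and 881 CPM, and ITGB4, at 357, 271, 572 and 557 CPM. Against LPS 7 of the 9 were above 0 and 2 below, with a median log2 ratio of 0.58. At least 2-fold higher were 4 of them (44.4%, beside 3.32% of all tested genes): TP63, S100A2, NGFR and ITGB4. KRT5, among those below 0, was at 18.9, 22.4, 19.1 and 19.9 CPM. KRT14 and KRT15, which define basal cells of the airway, had few counts. Values of the 4 libraries are given in that order from here on.

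OCLN itself was lower than in LPS in the library labelled wtOCLN+LPS. It stood at 55.4, 50.4, 21 and 29.7 CPM, a fold of 0.588 against LPS (0.524 to 0.660). Control and LPS were high and both transfected libraries low. This goes against the label, so the library is called by its label throughout. Whether RNA of the transfected sequence was counted under OCLN, or the labels of the transfected libraries were exchanged, cannot be told from these counts. Under either assignment of those labels OCLN lay below LPS, at 21 or 29.7 CPM against 50.4 CPM. No difference below is therefore read as following raised or lowered OCLN. Reads that OCLN shares with a partial copy elsewhere in the genome could not be separated.

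Relative to LPS, 448 of the 13493 genes (3.32%) were higher by 2-fold or more and 498 (3.69%) lower by as much. Calls use log2(CPM + 1), so the differences of genes with few counts are understated. Counts of list members past 2-fold are to be read against these shares. Within 2-fold lay 12547 genes. Past 4-fold there were 72 higher and 38 lower genes, and past 8-fold 20 higher and 4 lower. Over all tested genes the median log2 ratio was -0.15, or 0.01 after scaling by the trimmed mean of M-values (TMM), and list medians are to be read against that shift. Higher genes were 47.4% of those past 2-fold with library totals, 64.8% with TMM, 64.6% with median ratio scaling and 58.4% with upper quartile scaling. Counts were below 10 in LPS for 68 of the 448 higher genes, and below 10 in the other library for 86 of the 498 lower genes. Readthrough symbols, whose reads belong in part to a neighbouring gene, made up 7 of the higher and 20 of the lower genes and are uncertain.

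**Figure D1:**
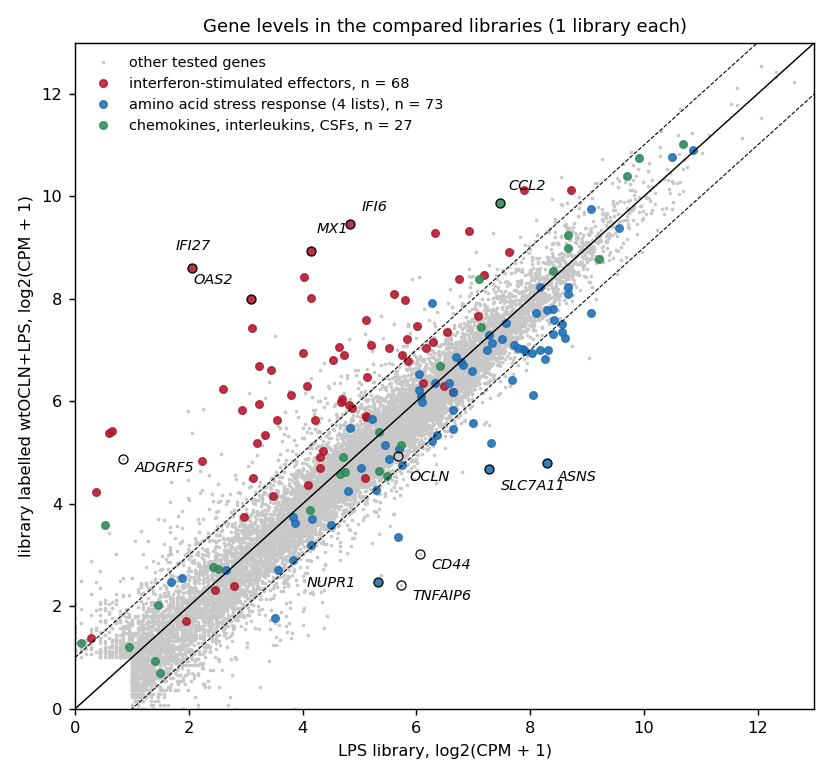
Each point is 1 of the 13493 tested genes, with log2(CPM + 1) in the LPS library on the x axis and in the library labelled wtOCLN+LPS on the y axis; the solid line marks equal values and the dashed lines 2-fold. Of the interferon-stimulated genes (red), 62 of 68 lie above the diagonal, 47 of them past 2-fold, and 22 of 73 amino acid stress genes (blue) lie past 2-fold below it.

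Interferon-stimulated effector genes, taken as the OAS, IFIT and IFITM, ISG15 and other antiviral lists together, made up 47 of the 448 higher genes. Of 68 tested members of 70 listed, none was at least 2-fold lower, with a median log2 ratio of 1.48 (1.65 with TMM, which put 51 past 2-fold). The library labelled wtOCLN+LPS held the highest value of the 4 libraries for 59 of the 68 genes (86.8%), against 13.2% of all tested genes. In LPS against control the same 68 genes had a median log2 ratio of -0.09, beside -0.09 for all tested genes. Against control in place of LPS, 50 were at least 2-fold higher and 1 lower, where 3.91% of 13569 tested genes were higher and 4.91% lower.

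Promoter windows were searched for the 4 interferon-stimulated genes with the highest ratios that reached 20 CPM and had an entry, and 3 are shown because they carry the letters to which the interferon-activated complex of STAT proteins and IRF9 is known to bind. The windows run from 250 bases before to 50 bases after the RefSeq start site on GRCh38.p14, 5′ to 3′ on the strand of the gene, and capitals mark matches to the response element core GAAANNGAAA on either strand. IFI27 lies on the plus strand at chr14:94110486-94110785, IFI6 on the minus strand at chr1:27672143-27672442 and MX1 on the plus strand at chr21:41420308-41420607.
IFI27: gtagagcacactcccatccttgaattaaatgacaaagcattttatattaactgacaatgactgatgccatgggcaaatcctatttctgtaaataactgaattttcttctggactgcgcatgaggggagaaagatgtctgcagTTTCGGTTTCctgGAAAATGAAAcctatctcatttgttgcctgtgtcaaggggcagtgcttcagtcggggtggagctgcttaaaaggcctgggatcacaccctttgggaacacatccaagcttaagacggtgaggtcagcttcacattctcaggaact
IFI6: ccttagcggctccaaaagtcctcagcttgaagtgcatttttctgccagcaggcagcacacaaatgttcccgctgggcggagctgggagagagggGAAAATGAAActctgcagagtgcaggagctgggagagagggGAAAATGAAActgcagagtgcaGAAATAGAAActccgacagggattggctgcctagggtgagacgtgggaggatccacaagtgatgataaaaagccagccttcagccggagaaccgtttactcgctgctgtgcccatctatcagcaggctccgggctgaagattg
MX1: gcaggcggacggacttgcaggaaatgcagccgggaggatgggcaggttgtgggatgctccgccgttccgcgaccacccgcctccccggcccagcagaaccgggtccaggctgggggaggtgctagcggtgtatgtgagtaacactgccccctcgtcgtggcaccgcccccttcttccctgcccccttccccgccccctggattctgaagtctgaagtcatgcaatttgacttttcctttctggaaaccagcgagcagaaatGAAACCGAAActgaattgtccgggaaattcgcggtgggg
IFI27 had 2 matches, at -108 to -99 on the opposite strand and at -95 to -86, counted from the start site. IFI6 had 3, starting at -156, -115 and -93, and the one of MX1 lay past the start site, at 11 to 20. RSAD2, the other gene searched, had none in its window. OAS2 and MX2 had no entry. Of all 27305 promoters in the table, 3.65% held the core, as did 2.53% of the 10065 tested genes within 2-fold that had an entry. The share was 7.37% of 285 genes 2-fold to 4-fold higher, 32.5% of 40 genes 4-fold to 8-fold higher and 44.4% of 18 genes at least 8-fold higher. On the other side it was 1.5% of 333 genes 2-fold to 4-fold lower and 1 of 26 genes at least 4-fold lower (3.85%). In the 4 interferon lists 32 of 53 genes with an entry (60.4%) held it. A match describes the letters of a window and is not evidence of binding in these cells.

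IFI27, a small mitochondrial protein of the interferon response, had the highest ratio of the genes at 5 CPM or more. It stood at 4.97, 3.17, 121 and 389 CPM, low without transfection and highest in the library labelled wtOCLN+LPS. IFI6, its relative in the endoplasmic reticulum, stood at 27.3, 27.5, 299 and 705 CPM. The dynamin-like GTPases that trap incoming viral particles followed the same order: MX1 was at 18.2, 16.7, 144 and 488 CPM and MX2 at 0.629, 0.577, 6.87 and 41.7 CPM, the latter 72.2-fold (36.5 to 168) higher than in LPS on 8 and 729 counts. RSAD2, the viperin enzyme that makes a chain-terminating nucleotide, was at 0.818, 0.505, 7.72 and 40.7 CPM. CMPK2, the neighbouring nucleotide kinase, had 4 and 312 counts in the compared libraries, 61.8-fold (23.9 to 228) higher. XAF1, an apoptosis factor, was 22.4-fold (18.5 to 27.5) higher and IFI44L 15.5-fold (13.6 to 17.7) higher. In each of these 8 genes the siOCLN+LPS library lay between LPS and the library labelled wtOCLN+LPS.

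The OAS enzymes make short oligoadenylates, signals of the antiviral response, after binding double-stranded RNA. OAS1 stood at 7.99, 5.05, 41.6 and 74.9 CPM, 14.8-fold (11.7 to 19.1) higher than in LPS. OAS2 was at 8.06, 7.5, 71.8 and 254 CPM, OAS3 at 105, 121, 360.0 and 643 CPM (5.31-fold, 5.05 to 5.59), and the OAS-like protein OASL at 4.09, 3.68, 9.73 and 27.5 CPM (7.49-fold, 5.6 to 10.2). All 4 were past 2-fold higher, lowest without transfection and highest in the library labelled wtOCLN+LPS.

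The IFIT proteins bind foreign RNA ends and the IFITM proteins block fusion of viral envelopes, and all 7 tested members were at least 2-fold higher. IFIT1 stood at 9.31, 8.44, 47.1 and 103 CPM, 12.2-fold (10.1 to 14.8) higher, and IFIT3 at 18.3, 23.9, 72.2 and 133 CPM, 5.56-fold (4.96 to 6.26) higher. IFIT2 and IFIT5 were 4.33-fold (3.54 to 5.34) and 2.58-fold (2.33 to 2.87) higher. IFITM1, IFITM2 and IFITM3 resemble each other closely, so reads may have been split between them. They stood at 82.6, 79.6, 295 and 624 CPM, 109.6, 106, 264 and 332 CPM and 252, 236, 718 and 1118 CPM, lowest without transfection and highest in the library labelled wtOCLN+LPS.

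ISG15 is a ubiquitin-like modifier, joined to proteins by UBA7, UBE2L6 and HERC5 in turn and removed by USP18, which also dampens the interferon receptor. ISG15 stood at 17.6, 15.3, 125 and 343 CPM. The ligase HERC5 was 4.52-fold (3.79 to 5.42) higher and the remover USP18 4.31-fold (3.56 to 5.24) higher. UBA7 and UBE2L6, the activating and conjugating enzymes, were 2.23-fold (1.98 to 2.51) and 2.24-fold (2.06 to 2.44) higher. All 5 genes were past 2-fold, with the highest ratio in the modifier. The other antiviral list was less uniform, with 31 of 51 tested members at least 2-fold higher and 5 below 0. CMTR1, a cap methyltransferase, and ZC3HAV1, the zinc-finger antiviral protein, lay near LPS at log2 ratios of 0.25 and -0.17.

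**Figure D2:**
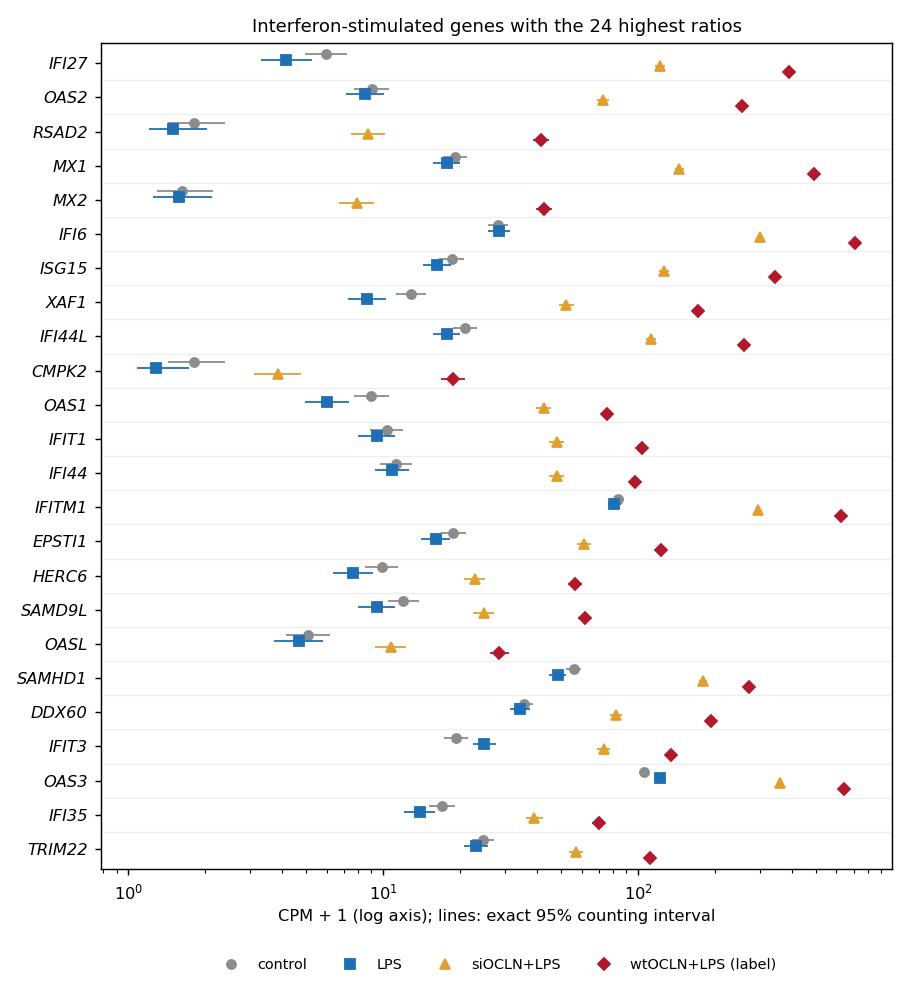
CPM + 1 on a log axis for the 24 interferon-stimulated genes with the highest ratios, with 1 marker for each of the 4 libraries and a line for the exact 95% counting interval. Control and LPS lie close together at the left, and the library labelled wtOCLN+LPS lies farthest right for IFI27 (389 CPM against 3.17 CPM in LPS) and the genes under it.

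Transcripts of the ligands that start this programme were near the limit of counting. Of 10 interferon genes listed, only IFNE, an epithelial type I interferon, reached 1 CPM, at 7.99, 7.57, 5.38 and 3.14 CPM, with its lowest value in the library labelled wtOCLN+LPS (2.41-fold, 1.72 to 3.4 lower than LPS). IFNL1, a type III interferon, had 7 counts in the library labelled wtOCLN+LPS and 0 in the other 3 libraries. IFNL2 had 2 counts against 0 in LPS, and IFNB1 had 1 against 0. A count of 0 allows up to 3 counts, so only IFNL1 lay above that limit. IFNG, IFNA5 and IFNL3 had 0 counts in both libraries.

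The receptors and kinases of the pathway lay close to LPS, with none of 9 past 2-fold and a median log2 ratio of -0.05, or 0.11 with TMM. IFNAR1, a chain of the type I receptor, stood at 82.9, 89.5, 97.6 and 94.9 CPM, and IFNAR2, its partner, at 24.1, 37.6, 57.4 and 57 CPM, 1.52-fold (1.36 to 1.69) higher than in LPS. JAK1 and TYK2 had log2 ratios of -0.09 and -0.21, and the type III receptor chain IFNLR1 stood at 6.36, 3.25, 3.03 and 4.0 CPM. Downstream of them, 4 of 10 STAT and IRF genes were past 2-fold higher, with a median of 0.32 and none past 2-fold lower.

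IRF9, the DNA-binding part of the complex, stood at 29.3, 24.3, 47.3 and 80.5 CPM (3.31-fold, 2.94 to 3.74), and IRF7, the amplifier of interferon genes, at 30.5, 26.6, 38.2 and 86.7 CPM (3.26-fold, 2.91 to 3.66). STAT2 was 1.47-fold (1.37 to 1.58) higher, short of 2-fold. IRF1 had another order: it stood at 89.1, 463, 1036 and 1009 CPM, higher in LPS than in control and about equal in the transfected libraries. IRF3, which is switched on by phosphorylation, had a log2 ratio of 0.01.

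The 16 nucleic acid sensors and adaptors had a median of 0.00, or 0.16 with TMM, with 2 past 2-fold higher and none lower. These were IFIH1, at 35.7, 30.4, 52.7 and 97.1 CPM (3.19-fold, 2.87 to 3.56), and DDX58, at 20.3, 39.6, 54 and 90.9 CPM (2.3-fold, 2.08 to 2.54). EIF2AK2, the RNA-activated kinase PKR, was 1.92-fold (1.79 to 2.06) higher and the DNA sensor IFI16 1.79-fold (1.65 to 1.94) higher, both under the 2-fold call. The DNA sensor MB21D1 and the kinase TBK1 lay near LPS, at log2 ratios of 0.08 and -0.08. TRAF3, an adaptor between sensors and kinases, was 1.66-fold (1.53 to 1.81) lower.

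Genes of MHC class I antigen presentation, which interferons are known to raise, had a median log2 ratio of 0.51, with 4 of 21 past 2-fold higher and none past 2-fold lower. The immunoproteasome subunit PSMB10 stood at 15.2, 15.8, 36 and 41.1 CPM (2.61-fold, 2.24 to 3.04), and the proteasome activator subunits PSME1 and PSME2 at 117, 111, 225 and 243 CPM and 51.7, 55.2, 117 and 135 CPM. TAPBPL, a peptide editor, was 2.6-fold (2.08 to 3.29) higher. For these 4 genes both transfected libraries were high, with the library labelled wtOCLN+LPS on top. TAP1, the peptide transporter, was 1.8-fold (1.71 to 1.89) higher, and the chaperones TAPBP and CALR lay near LPS at log2 ratios of -0.05 and 0.15. HLA genes share reads with each other and are uncertain. Leukocytes also express much of this programme, and their part in these values was not tested. Of 11 leukocyte markers PTPRC, CD3E, CD163 and HLA-DRA had 0 counts in both libraries. Only CD14, which was higher, and CD68, at 16.6, 16.6, 4.98 and 7.49 CPM, were tested, and the 11 summed to 26.9, 24.4, 26.1 and 31.0 CPM.

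Genes of the amino acid stress response lay on the lower side. The ATF4, serine and one-carbon, amino acid transporter and tRNA synthetase lists together held 73 tested genes of 75 listed, of which 22 were at least 2-fold lower and 1 higher. Their median log2 ratio was -0.57 against -0.15 for all genes, and -0.40 with TMM, which left 16 past 2-fold lower. The library labelled wtOCLN+LPS held the lowest value of the 4 for 35 of the 73 (47.9%), against 32.8% of all tested genes. The siOCLN+LPS library was lower to a like degree, with a median of -0.59 against LPS, beside -0.13 for all tested genes. For the library labelled wtOCLN+LPS against siOCLN+LPS the median was -0.02, beside -0.01 for all tested genes. In LPS against control the median of the 73 was -0.08. Against control, 24 were at least 2-fold lower and 3 higher, where 4.91% of 13569 tested genes were lower and 3.91% higher.

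ASNS, which makes asparagine from aspartate, is shown with its promoter window because it carries a match to the C/EBP-ATF response element core TGATGNAA, the element through which ATF4 acts. The window lies on the minus strand at chr7:97872359-97872658 (GRCh38.p14, RefSeq), and capitals mark the match, at -68 to -61 from the start site.
ASNS: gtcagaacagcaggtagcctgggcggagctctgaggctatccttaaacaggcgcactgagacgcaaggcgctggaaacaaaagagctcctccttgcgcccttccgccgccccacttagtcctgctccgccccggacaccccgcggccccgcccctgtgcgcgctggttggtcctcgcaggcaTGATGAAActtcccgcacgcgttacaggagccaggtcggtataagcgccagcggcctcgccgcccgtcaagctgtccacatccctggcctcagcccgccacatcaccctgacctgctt
The windows of PSAT1 and PHGDH held no match. The core was found on either strand in 3.67% of all 27305 promoters and in 1.49% of the 10065 genes within 2-fold. Among genes 2-fold to 4-fold lower, 15 of 333 (4.5%) held it, and among those at least 4-fold lower 1 of 26. Among higher genes it was in 4 of 285 at 2-fold to 4-fold, 2 of 40 at 4-fold to 8-fold (5%) and 0 of 18 beyond. In the lists it was in 1 of 8 serine and one-carbon synthesis genes and 6 of 13 tRNA synthetases (46.2%). It was also in 4 of 13 amino acid transporters (30.8%) and 4 of 21 ATF4 and integrated stress response genes (19.0%). In the ATF4, serine and transporter lists together, the median log2 ratio was -0.61 for 9 genes with a match and -0.55 for 33 without.

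ASNS stood at 329, 312, 31.9 and 26.7 CPM, 11.7-fold (10.6 to 12.9) lower than in LPS, with control and LPS high and both transfected libraries low. NUPR1, a stress-induced chromatin protein, followed the same order at 48.5, 39.1, 5.21 and 4.57 CPM. The mRNA of ATF4 itself was closer to LPS, at 402, 403, 302 and 300.1 CPM, 1.34-fold (1.29 to 1.4) lower. Of its list, 9 of 25 tested genes were at least 2-fold lower. CTH, which makes cysteine, was 4.33-fold (3.05 to 6.26) lower, XPOT, which exports tRNA from the nucleus, 2.73-fold (2.59 to 2.88) lower, and TRIB3, the pseudokinase that feeds back on ATF4, 2.69-fold (2.47 to 2.92) lower. DDIT4, an inhibitor of mTORC1 also raised by hypoxia, was the 1 member past 2-fold in the other direction, at 113, 76.3, 241 and 240.1 CPM. VEGFA lay at a log2 ratio of 0.02.

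Enzymes of serine synthesis and mitochondrial folate were on the lower side. PHGDH, which takes the first step, stood at 279.9, 264, 84.6 and 68.4 CPM, 3.85-fold (3.61 to 4.12) lower, and PSAT1, which takes the next, at 186, 158, 42.3 and 35.4 CPM. SHMT2 and MTHFD2, which carry the serine carbon into mitochondrial folate, were 2.13-fold (2.02 to 2.25) and 2.31-fold (2.2 to 2.42) lower, and ALDH1L2, which ends that chain, was 5.43-fold (4.57 to 6.48) lower. These 5 made up all members past 2-fold among 13 tested (median -0.46). MTHFD1, in the cytosolic branch, and the thymidylate synthase TYMS lay near LPS, at log2 ratios of -0.04 and 0.03.

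Transporters and tRNA synthetases were also on the lower side, with exceptions. SLC7A11, which brings in cystine, stood at 168, 154, 26.1 and 24.6 CPM, and its heavy-chain partner SLC3A2 at 534, 540.0, 201 and 212 CPM (2.55-fold, 2.45 to 2.65 lower). SLC7A1, which carries arginine and lysine, was 2.09-fold (1.99 to 2.18) lower, and these 3 of 16 were past 2-fold. SLC7A5, the leucine carrier that shares the SLC3A2 partner, was at 1725, 1866, 1857 and 1909.9 CPM, a log2 ratio of 0.03. Of 20 cytosolic tRNA synthetases, 5 were at least 2-fold lower: AARS at 414, 391, 161 and 150.4 CPM (2.6-fold, 2.48 to 2.72), SARS (2.49-fold, 2.36 to 2.62), YARS (2.42-fold, 2.27 to 2.58), GARS (2.26-fold, 2.15 to 2.38) and EPRS (2.12-fold, 2.02 to 2.22). FARSA and HARS, which charge phenylalanine and histidine, had log2 ratios of 0.03 and -0.10.

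**Figure D3:**
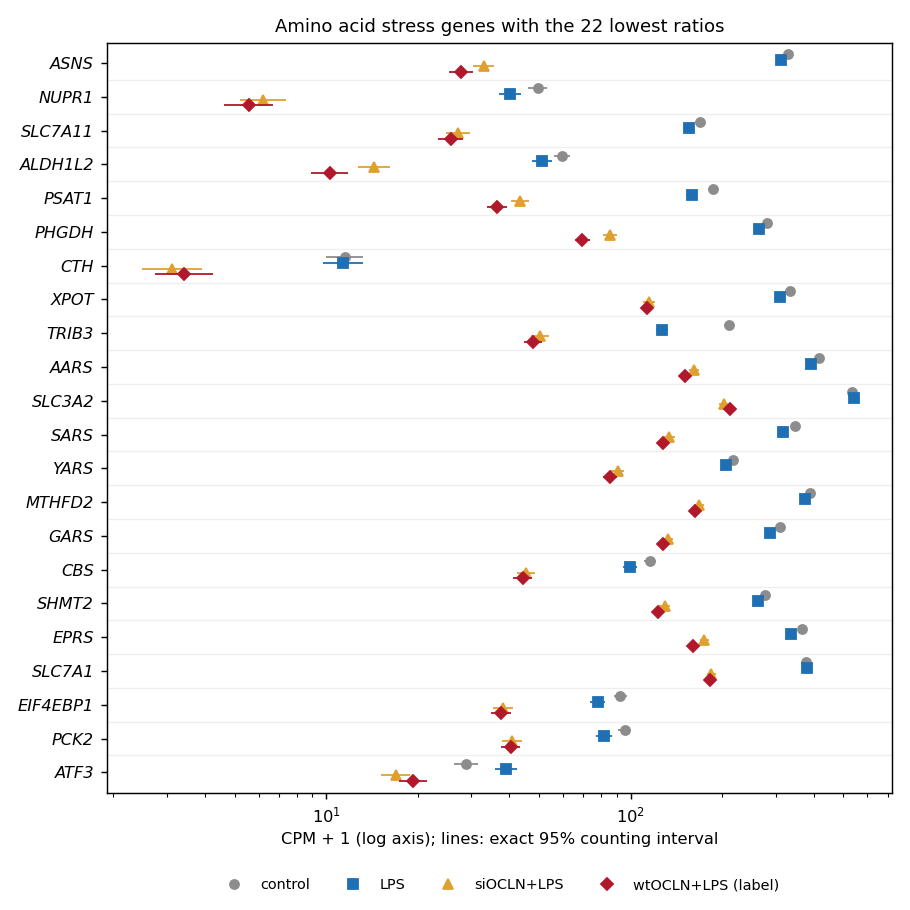
CPM + 1 on a log axis for the 22 amino acid stress genes with the lowest ratios, 1 marker for each of the 4 libraries, with exact 95% counting intervals as lines. Control and LPS lie at the right and both transfected libraries at the left, with ASNS at 312 CPM in LPS against 26.7 CPM in the library labelled wtOCLN+LPS.

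Other stress programmes lay closer to the median of all genes. Endoplasmic reticulum chaperones had 1 of 18 genes past 2-fold lower (median -0.26), the stress sensor ERN1, or IRE1, at 13.2, 23.3, 9.84 and 9.14 CPM (2.55-fold, 2.1 to 3.1 lower). Heat shock genes had 3 of 21 lower (median -0.30). HSPA6, an inducible HSP70 gene with a close copy, had 187 counts in LPS against 0, at least 78.7-fold lower against a floor of 3 counts. The co-chaperone DNAJB4 was 3.7-fold (3.18 to 4.33) lower and HSPA1B, which shares nearly all its reads with another copy, 2.27-fold (2.05 to 2.51) lower. The constitutive HSPA8 had a log2 ratio of -0.01.

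NRF2 targets had 3 of 17 genes past 2-fold lower (median -0.18): the growth inhibitor OSGIN1 (5.43-fold, 3.42 to 8.96), the sulfiredoxin SRXN1 (2.63-fold, 2.42 to 2.86) and the haem oxygenase HMOX1 (2.49-fold, 2.18 to 2.85). HMOX1 stood at 50.2, 47.7, 19.6 and 19.1 CPM, high in control and LPS and low after transfection. Of 17 p53 targets 1 was past 2-fold (5.88% lower, beside 3.69% of all tested genes). It was ZMAT3 (2.78-fold, 2.44 to 3.18 lower), and the list had a median of -0.04, or 0.11 with TMM. Metallothioneins bind zinc and copper, and their copies are near-identical. The list of metallothioneins and zinc transporters together had a median of 0.55 over 11 tested genes. MT1X stood at 188, 273, 757 and 742 CPM (2.72-fold, 2.62 to 2.82 higher) and MT1M at 3.59, 4.11, 11.6 and 13.9 CPM, while the zinc exporter SLC30A1 was 2.48-fold (2.2 to 2.8) lower.

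The LPS response was the background of both libraries. Against control, the library labelled wtOCLN+LPS had 11 of 14 tested chemokines, 8 of 13 interleukins and colony-stimulating factors and 17 of 23 NF-kB genes at least 2-fold higher, with medians of 3.28, 1.55 and 1.97. Against LPS the medians were 0.34, -0.09 (0.07 with TMM) and 0.03, and 3, 1 and 2 genes were past 2-fold higher. No chemokine or interleukin was past 2-fold lower, and of the NF-kB list only TNFAIP8 was.

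The 3 chemokines past 2-fold higher act on monocytes and lymphocytes. CCL2, which draws monocytes, stood at 2.33, 176, 958 and 934 CPM, and CXCL10, an interferon-induced lymphocyte chemokine, at 0.189, 0.433, 7.44 and 11.1 CPM, on 6 and 194 counts in the compared libraries. CXCL11, its relative, had 1 and 25 counts, a ratio of 19.8-fold (3.24 to 813). Both transfected libraries were high in all 3 genes. Among neutrophil chemokines within 2-fold, CXCL1 stood at 22.8, 962, 1758 and 1721 CPM (1.79-fold, 1.75 to 1.83), CXCL6 at a log2 ratio of -0.13, and CXCL5 at 6.29, 39.6, 18.7 and 24 CPM, 1.65-fold (1.45 to 1.88) lower.

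IL6 stood at 4.85, 136, 269 and 335 CPM, 2.46-fold (2.33 to 2.59) higher than in LPS and highest in the library labelled wtOCLN+LPS. CSF1, the macrophage growth factor, was at 125, 832, 1359 and 1351 CPM, 1.62-fold (1.59 to 1.66) higher but short of 2-fold. CSF2, or GM-CSF, lay the other way at 0.566, 51.8, 38.9 and 34.2 CPM, 1.51-fold (1.36 to 1.69) lower. IL1A and IL1B, which start the epithelial inflammatory cascade, had log2 ratios of 0.07 and -0.09, and IL18, a constitutive epithelial cytokine, was at 34.7, 43.7, 20.5 and 22.3 CPM (1.96-fold, 1.72 to 2.23 lower).

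**Figure D4:**
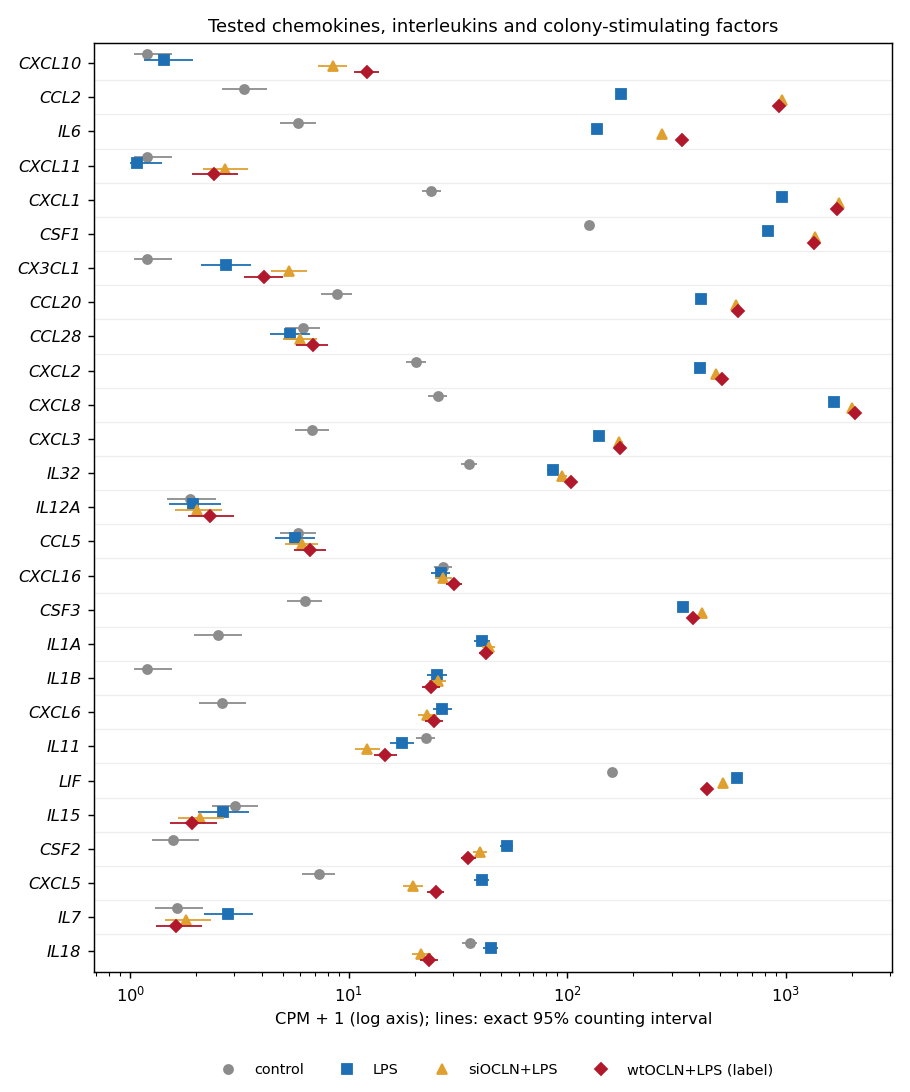
CPM + 1 on a log axis for all 27 tested chemokines, interleukins and colony-stimulating factors, ordered by the ratio of the library labelled wtOCLN+LPS to LPS, with exact 95% counting intervals as lines. For most genes higher in LPS than in control, the control marker lies far left and the other 3 lie together; CXCL10, CCL2 and IL6 are at the top, and IL18 at 22.3 CPM against 43.7 CPM in LPS is at the bottom.

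Regulators of the same pathway were split. TNFAIP2, an NF-kB target, stood at 114, 1585, 3649 and 3328 CPM (2.1-fold, 2.07 to 2.13 higher), and BCL3, a nuclear IkB protein, at 60.3, 120.4, 259 and 264 CPM (2.19-fold, 2.07 to 2.32 higher). TNFAIP3, the A20 brake on NF-kB, was at 61.6, 1242, 1183 and 1256 CPM, a log2 ratio of 0.02, and its partner TNIP1 at 0.02. TNFAIP8, an apoptosis inhibitor, was 2.26-fold (2.1 to 2.44) lower, at 31.2, 141, 66 and 62.2 CPM. Of 19 genes of LPS sensing, CD14, the co-receptor that hands LPS to TLR4, was at 8.37, 5.99, 20.6 and 22.7 CPM and MYD88 at 26.4, 22.4, 41.5 and 59.1 CPM, the 2 past 2-fold higher (median -0.27, or -0.10 with TMM). TLR2, which senses bacterial lipoproteins, was at 6.55, 20.6, 12.8 and 10.9 CPM, 1.89-fold (1.57 to 2.29) lower. TICAM2 had 23 and 0 counts, but part of its reads can belong to a readthrough transcript.

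In the TNF superfamily, with 2 of 17 genes past 2-fold in each direction, TNFSF10, the death ligand TRAIL, stood at 2.96, 3.61, 16 and 23.9 CPM (6.64-fold, 4.94 to 9.09 higher). TNFSF14, the ligand LIGHT, stood at 4.72, 40.4, 5.38 and 5.09 CPM, high in LPS alone. The decoy receptor TNFRSF10D was 2.07-fold (1.87 to 2.3) lower. TNF itself had 69 and 180 counts, 2.07-fold (1.56 to 2.77) higher without the pseudocount but short of the 2-fold call. Complement genes had 1 of 12 past 2-fold (8.33% lower, beside 3.69% of all tested genes). It was the protease C1S (2.36-fold, 2.07 to 2.69 lower), and C3 stood at 797, 1362, 1251 and 1474 CPM.

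Several matrix genes were higher in LPS than in control and lower in the library labelled wtOCLN+LPS. TNFAIP6, which transfers heavy chains onto hyaluronan, stood at 2.39, 51.8, 3.43 and 4.34 CPM, and PTX3, a pattern recognition protein that joins that matrix, at 7.36, 525, 136 and 113 CPM. CD44, the hyaluronan receptor, was at 31.8, 65.5, 6.58 and 7.14 CPM, so both transfected libraries lay below control as well. VCAN, a hyaluronan-binding proteoglycan, was not higher in LPS than in control, at 19.1, 15, 2.63 and 2.74 CPM (5.47-fold, 3.98 to 7.65 lower). The hyaluronan synthase HAS3 was 3.49-fold (2.75 to 4.47) higher. In all, 4 of 11 hyaluronan matrix genes were past 2-fold lower and 1 higher.

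Of 16 metalloproteinase and plasminogen genes 3 were past 2-fold lower and none higher. MMP3, stromelysin-1, stood at 0.315, 19.8, 4.92 and 2.0 CPM, and SERPINB2, the plasminogen activator inhibitor PAI-2, at 0.944, 11.1, 0.629 and 1.54 CPM (7.2-fold, 4.76 to 11.3 lower). SERPINE2, another protease inhibitor, was at 8.31, 26.6, 7.72 and 7.2 CPM (3.7-fold, 3.01 to 4.56 lower). Each was highest in LPS. The urokinase PLAU, at 147, 398, 739 and 707 CPM, was 1.78-fold (1.72 to 1.83) higher, and tissue factor, F3, had a log2 ratio of 0.08. Relative to control in place of LPS, the sign was opposite for TNFAIP6, MMP3, PTX3, TNFSF14, TNFAIP8 and SERPINB2, and for the laminin chain LAMB3, which stood at 5.73, 36.3, 7.44 and 8.46 CPM.

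Among the 12 lowest ratios of genes at 5 CPM or more were also GPRC5B, an orphan receptor, at 1.95, 8.51, 0.286 and 0.343 CPM (24.8-fold, 11.1 to 69 lower on 118 and 6 counts), and KYNU, the kynureninase of tryptophan breakdown, at 8.75, 20.6, 4.29 and 2.51 CPM (8.17-fold, 5.93 to 11.5 lower). C11orf96 was 9.38-fold (6.39 to 14.2) lower. All 3 were highest in LPS and below control in the library labelled wtOCLN+LPS. The uncharacterised LOC100128770 had 76 and 1 counts, a ratio of 95.9-fold (16.7 to 3837), and TMEM256-PLSCR3, a readthrough symbol, 85 and 0 counts, an uncertain value.

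Tight junction genes, the group that OCLN belongs to, had the median log2 ratio of all genes, -0.15 (0.01 with TMM), over 27 genes. Of these, 1 was past 2-fold higher (3.7%) and 3 lower (11.1%), beside 3.32% and 3.69% of all tested genes. CLDN11, a claudin, stood at 15.7, 16.9, 51.8 and 66.6 CPM. MARVELD2, the tricellulin of tricellular contacts and a relative of occludin, was at 9.63, 9.81, 2.4 and 3.43 CPM, and CLDN12 and CLDN15 were 2.24-fold (1.94 to 2.59) and 2.55-fold (1.97 to 3.32) lower. PARD6B, a polarity protein, and LSR, a tricellular contact protein, had log2 ratios of -0.07 and 0.10. Of 19 adherens junction and desmosome genes 1 (5.26%) was past 2-fold in each direction, near the shares of all tested genes. These were CDH1, E-cadherin, at 45.6, 42.5, 105 and 104 CPM, and the desmoglein DSG2 at 119, 113, 50.6 and 47.8 CPM (2.36-fold, 2.17 to 2.57 lower). The catenin CTNND1 lay at -0.03.

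Keratins, the intermediate filaments of epithelia, had 3 of 13 genes past 2-fold higher and a median of 0.58. In all, 10 of the 13 were above 0 and 3 below. The lowest was KRT16, on 43 and 26 counts (2.09-fold, 1.25 to 3.54 lower, short of the 2-fold call). KRT8 and KRT18, which pair in simple epithelia, stood at 442, 372, 976 and 919 CPM and 334, 254, 535 and 503 CPM, and KRT19 at 5.41, 3.68, 24.8 and 18.3 CPM. KRT81 was 2.08-fold (1.79 to 2.43) higher. Processed copies of KRT8 and KRT18 are known, so their reads may be shared. TP63, the basal cell transcription factor, was at 2.01, 2.96, 12.2 and 21.1 CPM, lowest without transfection. The other tested epithelial regulators were within 2-fold, with ELF3 1.9-fold (1.83 to 1.99) higher and ESRP2 at -0.05, and the median of the list was -0.15 (-0.01 with TMM).

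Of 13 listed markers of alveolar epithelium 7 were tested. Against LPS 6 were above 0 and 1 below, with a median log2 ratio of 0.69, and 28.6% were past 2-fold higher, beside 3.32% of all tested genes. Their sum of 362, 482, 803 and 811 CPM was mostly CAV1, which many other cell types also express, at 312, 431, 679 and 675 CPM. AGER, the receptor that marks alveolar type I cells, was lower, at 8.06, 6.63, 4.01 and 3.94 CPM (1.68-fold, 1.22 to 2.33 lower). The 2 markers past 2-fold were CLIC5, an ion channel protein, at 1.95, 2.96, 47.8 and 55 CPM (18.6-fold, 13.6 to 26.1), and the water channel AQP5 on 6 and 51 counts. HOPX and SFTPA1 had 0 counts in both libraries. Of 10 ciliated cell markers 3 were tested and FOXJ1 was at 0, and nearly all of their sum of 555, 447, 658 and 625 CPM was TUBB4B, a tubulin that other cells also make, at 548, 441, 654 and 620.3 CPM. The other 2, CCDC39 and CAPS, had log2 ratios of -0.25 and -0.26. Fibroblast markers summed to 152, 130, 171 and 179 CPM with 3 of 9 tested and COL3A1 and LUM at 0, and endothelial markers to 2.14, 2.60, 1.77 and 1.94 CPM with 1 of 9 tested and TIE1 at 0. The fibroblast marker PDGFRB, a growth factor receptor, was at 12.3, 13.8, 49.4 and 55.4 CPM. The other tested fibroblast markers lay within 2-fold, COL1A1 slightly lower than in LPS at 57.6, 62.7, 56.1 and 55.2 CPM. THY1 was at 81.6, 52.7, 64.5 and 67.8 CPM. The part of such cells in the keratin and matrix values was not tested.

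Adhesion and growth-factor genes held some of the largest single ratios. NPNT, a basement membrane ligand of integrins, stood at 3.21, 3.75, 53.3 and 56.8 CPM (15.1-fold, 11.5 to 20.4 higher), and LAMA5 and ITGB4, a laminin chain and the hemidesmosome integrin, were 2.17-fold (2.12 to 2.23) and 2.05-fold (1.98 to 2.13) higher. ANKRD1 and CTGF, targets of YAP and TAZ in cells under tension, stood at 5.98, 7.36, 44.3 and 70.7 CPM and 478, 611, 1625 and 1701 CPM, and EDN1, the vasoconstrictor endothelin-1, at 3.65, 21.2, 62.8 and 75.8 CPM. These 3 of 20 YAP/TAZ targets were past 2-fold higher, while the factors they answer to, TEAD1 and TEAD4, had log2 ratios of 0.02 and 0.01. ADGRF5, an adhesion receptor, had one of the largest ratios outside the interferon lists, at 0.189, 0.793, 31.5 and 28.3 CPM.

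Several BMP target genes were higher. ID1, an inhibitor of differentiation factors, stood at 69.4, 40.5, 161 and 201 CPM (4.97-fold, 4.55 to 5.45 higher), ID3 at 38.3, 56.2, 126 and 135 CPM, and ATOH8, a transcription factor that BMP signals induce, at 11.1, 9.59, 88.6 and 82.1 CPM (8.56-fold, 7.16 to 10.3 higher). The feedback gene SMAD6 had 9 and 65 counts (5.72-fold, 2.84 to 13.1). Of 11 genes 5 were past 2-fold higher and 2 lower. The lower ones were secreted BMP or activin antagonists: GREM1, on 48 and 1 counts (ratio 60.6-fold, 10.4 to 2442), and FST, on 30 and 6 counts (6.31-fold, 2.58 to 18.5). Mesenchymal transition genes did not share a direction (median 0.10). Past 2-fold, 1 of 17 was higher (5.88%) and 2 lower (11.8%), beside 3.32% and 3.69% of all tested genes. S100A4 was 5.46-fold (3.32 to 9.51) higher, and SNAI2 and fibronectin, FN1, were 2.76-fold (1.94 to 3.97) and 2.07-fold (2.01 to 2.14) lower.

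Cell cycle genes were lower as a list by small steps, with 40 of 44 below 0 beside 8523 of all 13493 tested genes, 4 past 2-fold lower and a median of -0.41 (-0.24 with TMM, with 1 past 2-fold). The mitotic kinase AURKA stood at 115, 98, 50.2 and 42.9 CPM (2.28-fold, 2.09 to 2.5 lower), E2F2 at 65, 63, 24 and 28.3 CPM and CDCA8, a part of the chromosomal passenger complex, at 78.2, 64.3, 31.5 and 29.8 CPM. PCNA and MCM3, which act in replication, had log2 ratios of 0.04 and 0.02. Histone genes, whose copies share reads, had 5 of 21 past 2-fold higher, among them the linker histone HIST1H1E on 57 and 398 counts. Immediate early genes had 3 of 30 past 2-fold lower, SPRY4, EGR3 and ATF3, with a median of -0.31 (-0.15 with TMM).

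Metabolic genes of glycolysis and the hypoxia response had 5 of 34 past 2-fold higher and none lower (median 0.29). LDHA, the lactate dehydrogenase, stood at 344, 344, 709 and 755 CPM (2.19-fold, 2.12 to 2.27 higher), PGAM1 at 201, 182, 346 and 379.8 CPM, and NDRG1 and ALDOC were 2.35-fold (2.21 to 2.5) and 2.07-fold (1.88 to 2.29) higher. CA9, a carbonic anhydrase of hypoxic cells, had 15 and 153 counts. The glucose kinase HK2 and the oxygen sensor EGLN1 lay near LPS, at -0.01 and 0.01. In the cholesterol list, FASN, the fatty acid synthase, stood at 1001, 869.6, 1833 and 1875 CPM (2.16-fold, 2.11 to 2.2 higher) and ABCA1, which exports cholesterol, at 7.43, 12.5, 3.15 and 2.17 CPM (5.78-fold, 4.05 to 8.44 lower), with a median of 0.12 over 25 genes. Respiratory chain genes had a median of 0.25 with 1 of 51 past 2-fold, and cytosolic ribosomal protein genes one of -0.05 (0.11 with TMM) with none of 46.

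In share of the library, the largest positive differences were those of ACTB, at 4557, 4262, 5675 and 6011 CPM, then TNFAIP2, SDC4, ENO1, CTGF and FASN. The largest negative differences were those of the elongation factor EEF1A1, at 6562, 6364, 5428 and 4787 CPM, then AHNAK, EEF2, PABPC1, FTL and RPS2. These abundant genes lay within 2-fold except TNFAIP2, CTGF and FASN. Of 15 reference genes 1 was past 2-fold (6.67% lower, beside 3.69% of all tested genes). It was POLR2A, the largest subunit of RNA polymerase II, at 565, 569, 219 and 255 CPM (2.23-fold, 2.15 to 2.31 lower). PPIA and PGK1, often used for scaling, were 1.68-fold (1.65 to 1.72) and 1.74-fold (1.67 to 1.82) higher.

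**Figure D5:**
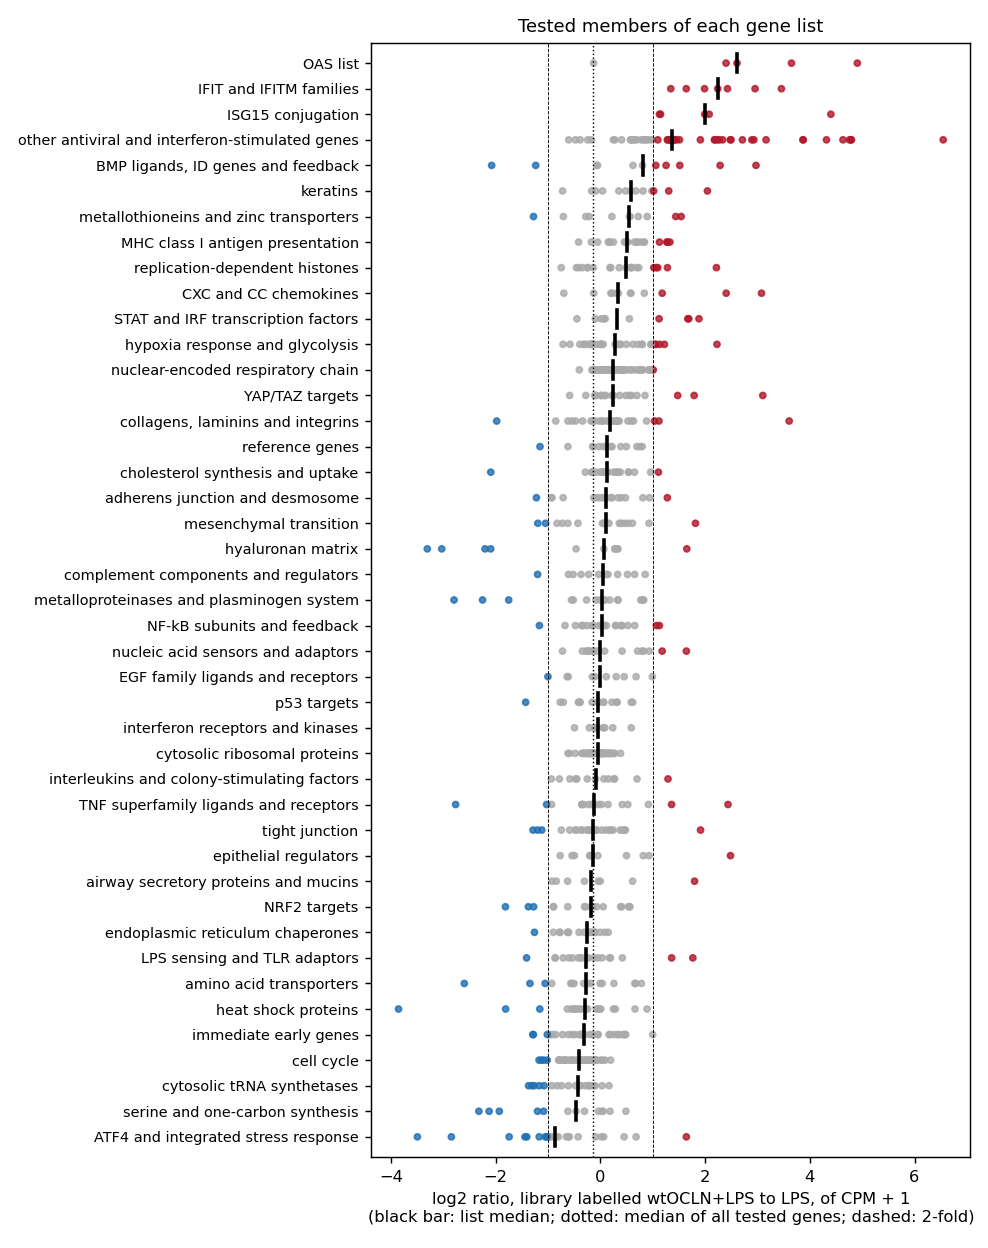
Log2 ratio of CPM + 1, library labelled wtOCLN+LPS to LPS, for every tested member (points) of each list with 5 or more of them; black bars are list medians, the dotted line the median of all tested genes (-0.15) and the dashed lines 2-fold. The 4 interferon effector lists stand at the top with medians of 1.36 to 2.61, and the ATF4 list stands at the bottom at -0.87.

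The ratio differed along transcript length and base composition. With genes split into 4 equal groups by transcript length, shortest first, the median log2 ratio was -0.04, -0.15, -0.16 and -0.21, and split likewise by GC content, lowest first, it was -0.25, -0.17, -0.12 and -0.00. With that trend removed, 370 genes were at least 2-fold higher and 540 lower, and the medians of all 50 lists moved by less than 1.5-fold. Of 148 named genes past 2-fold that had a length and GC value, 131 were still past it, and none changed sign.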

How the data were processed

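RNA sequencing libraries of BEAS-2B cells, 1 for each of 4 groups, were taken as deposited. The deposited values were whole-number counts per gene symbol, made by the authors with a directional library kit, per the labels' protocols. The submitters' processing notes name TopHat, Cufflinks and the build hg19 and give no versions. How reads were counted (tool, strand, shared reads, annotation) is not given in the sources used here, so overlapping, antisense and near-identical genes are uncertain.

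CPM was computed from library totals, and log2 ratios were taken with a pseudocount of 1 for every gene that reached 1 CPM in at least 1 of the compared libraries. The threshold for a higher or lower gene was 2-fold. Folds with intervals use CPM with no pseudocount, and the 95% intervals are exact (Clopper-Pearson). Molecular identifiers are not mentioned for the kit, and intervals cover counting error only. With 1 library per group no test could be fitted and no p-value was computed. A gene with 0 counts was compared against a floor of 3 counts. The labels name no separate cultures.

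The members and the 50 gene lists (997 memberships, all 997 found) were chosen with earlier results of these data known. Named genes were OCLN, the 12 highest and 12 lowest log2 ratios at 5 CPM or more, the 6 largest differences in CPM in each direction, every member of lists of up to 10 genes, and from longer lists up to 6 members with the largest and 2 with the smallest absolute ratio, the latter at 20 CPM or more in both libraries. Some listed genes are not reported here by name. Interferons with few counts and marker genes come from the lists. Genes used for promoters were up to 4 interferon and 3 amino acid stress genes with an entry in the RefSeq table (GRCh38.p14), each searched on both strands. Length and GC values are those of each symbol's longest transcript in GENCODE 29, matched for 94.6% of tested genes. Alternatives were other pseudocounts, filters, thresholds, scalings and reference libraries, small RNA genes left out, the mean of a list, and the length and GC trend removed. TMM factors came from edgeR 4.0.16 in R 4.3.3. All else ran in Python 3.11.15 (pandas 2.3.3, NumPy 2.4.6, SciPy 1.17.1), and figures used matplotlib 3.10.9.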

Additional observations from a re-analysis of the deposited data

How the results depend on the processing

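The number of genes past the threshold depended on the threshold and the pseudocount. Relative to LPS, 1159 genes were higher and 2036 lower at 1.5-fold, and 144 higher and 92 lower at 3-fold. Raising the pseudocount to 5 left 254 higher and 173 lower genes, and reducing it to 0.1 gave 925 lower genes. The other settings stayed within 1.5 times of the 448 higher and 498 lower genes: 615 and 334 with TMM, 612 and 335 with median ratio scaling, 535 and 381 with upper quartile scaling, 370 and 540 without the length and GC trend, 360 and 338 at 5 CPM, and 531 and 666 against control. Of 149 named genes past 2-fold, 133 were still past it with TMM, 134 with median ratio, 138 with upper quartile scaling and 120 with a pseudocount of 5, with no change of sign.

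Against the control library 123 of the 149 were still past 2-fold, and 7 had the other sign, at log2 ratios of 0.66 for TNFAIP6, 1.19 for MMP3, 0.089 for TNFSF14, 0.98 for TNFAIP8, 3.77 for PTX3, 0.39 for SERPINB2 and 0.49 for LAMB3. The medians of all 50 lists moved by less than 1.5-fold under the pseudocounts, the scalings and the removal of the length and GC trend, 5 moved by more against control, 2 without a filter and 1 with the mean. The cause was not tested. With 1 library per group, no replicate could be left out. No paired analysis was possible because each group holds 1 library.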
